A study of Mus musculus with 4 samples.

Results

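Dendritic epidermal T cells were picked out of single-cell transcriptomes of mouse back skin epidermis by their T cell transcripts. Barcodes holding 1200 counts or more, of which no more than 20% were mitochondrial, were kept as cells, and a kept cell was taken as a dendritic epidermal T cell when Cd3e, Cd3g, Cd3d, Trdc, Trgc1 and Cd7 together gave at least 4 counts and Cd207, the Langerhans cell lectin, gave 0. These 6 genes code for subunits of the CD3 complex, the constant regions of the δ and γ T cell receptor chains, and a lymphoid surface protein. The rule found 454 cells of the 34150 kept (1.33%).

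The cells came from 4 female C57BL/6N mice at postnatal day 19. By the study's definition of control, the 2 control mice, titled WT in the sample labels, carried floxed CerS4 alleles without Cre (CerS4fl/flK14Cre-). The 2 CerS4epi-/- mice carried the same floxed alleles with Cre under the keratin-14 promoter (CerS4fl/flK14Cre+). Both genotypes thus shared the floxed alleles and the strain, and the Cre transgene itself was absent from the controls. Keratin-14 is a keratinocyte keratin, so the deletion was directed at the epithelium and not at T cells. With 2 mice a genotype, a two-sided exact permutation test over mice can give no p below 0.333.

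Dendritic epidermal T cells are the resident γδ T cells of mouse epidermis. They arise in the fetal thymus with an almost invariant receptor built from the Trgv5 and Trdv4 segments, settle in the epidermis around birth, and keep contact with keratinocytes through long processes. They are known for sensing keratinocyte stress through natural killer type receptors and costimulatory molecules, and for answering with chemokines and growth factors that act on epithelial cells.

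The 4 libraries held between 39231945 counts (CerS4epi-/- mouse 2) and 53106317 counts (CerS4epi-/- mouse 1), with 42619084 in control mouse 1 and 48497481 in control mouse 2. After the limits, 17566 control cells and 16584 CerS4epi-/- cells remained. No cell barcode was shared between the 2 control mice or between the 2 CerS4epi-/- mice, whereas each pair of mice of different genotype shared 64 to 102 cell barcodes. The product of the cell numbers over the 884736 possible barcodes lay between 72.5 and 92.6 for the 6 pairs, the same-genotype pairs included. No barcode was a T cell in 2 mice. How the mice were loaded together was not given in the sources used here, so genotype and a loading shared within a genotype cannot be told apart in any comparison below.

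The T cells stood clearly apart from the rest by the counts used to choose them. Of the T cells, 98 and 64 in control mice 1 and 2 and 130 and 136 in CerS4epi-/- mice 1 and 2 held 20 or more counts of the 6 genes. The median was 43 in each control mouse and 47 and 45 in CerS4epi-/- mice 1 and 2. Just inside the limit, 2 cells held exactly 4 counts, and just outside it 20 cells held 3. In control mouse 1, 2 further barcodes met the T cell limit and were left out for Cd207. These values are those of the rule and are given as a description only.

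**Figure D1:**
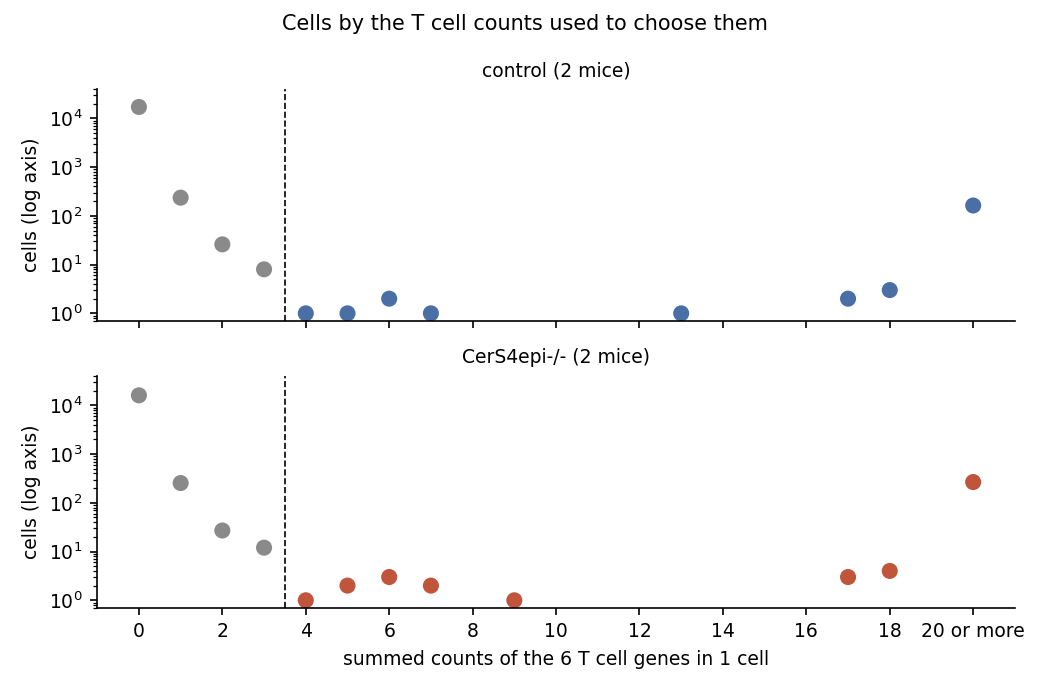
Number of kept cells (log axis) by the summed rounded counts of Cd3e, Cd3g, Cd3d, Trdc, Trgc1 and Cd7 in a cell, for the 2 control mice (top) and the 2 CerS4epi-/- mice (bottom); the dashed line marks the limit of 4, empty positions had no cell, and the 2 control barcodes later left out for Cd207 are still counted. Nearly all cells right of the line hold 20 or more, and few lie between 4 and 19.

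Trdc and Trgc1 are among the genes that chose the cells, so their high level in the T cells and low level elsewhere were fixed by the choice and are given as a description. Trdc, the δ constant region (chromosome 14, 54380308 to 54386325 of GRCm39), was detected in 103 of 106 and 64 of 66 T cells of control mice 1 and 2, and in 138 of 139 and 141 of 143 of CerS4epi-/- mice 1 and 2. In the other cells, which are neither these T cells nor Langerhans cells, it was detected in 0.217% to 0.434%, at median depths of 3278 to 3945 counts against 1541 to 1922 in the T cells. Summed over the T cells of a mouse and scaled to CPM (counts per 1e6 counts), Trdc stood at 4542 and 4296 CPM in controls and at 4409 and 3784 CPM in CerS4epi-/- mice, against at most 0.959 CPM in the other cells. Trgc1, the γ constant region, stood at 4126 and 4053 CPM in controls and at 3864 and 3571 CPM in CerS4epi-/- mice. Trgc2 is a near-identical copy of Trgc1, and both had fractional counts because the authors' counting shared out reads that map to several genes, so the split between them is uncertain. Trdc overlapped between genotypes, and Trgc1 was slightly lower in both CerS4epi-/- mice. Since every T cell had to hold counts of the 6 rule genes in both genotypes, nothing is read from the genotype test of these genes.

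The canonical variable segments, which the rule did not use, were present. Trdv4 (chromosome 14, 54312362 to 54312972) was detected in 27 of 106 and 14 of 66 control T cells and in 47 of 139 and 39 of 143 CerS4epi-/- T cells, at 129 and 111 CPM in controls and 163 and 119 CPM in CerS4epi-/- mice. After every cell was thinned to 1200 counts the shares were 20.2% and 16.7% in controls and 20.9% and 17.1% in CerS4epi-/- mice, so the genotypes lay side by side once depth was equal. Trgv5 was rare, with 4 and 2 T cells in controls and 10 and 4 in CerS4epi-/- mice. Other cells held Trdv4 in at most 0.022%.

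Of 7 markers of conventional αβ T cells, 4 had counts in the T cells and 3 did not. Cd8a, Cd8b1 and Foxp3 were at 0 in the T cells of every mouse, and Cd4 was detected in 3 of the 454 cells. Trac, the α constant region, was detected in 12 and 7 control T cells and in 13 and 24 CerS4epi-/- T cells, at 75.8 and 118 CPM in controls and at 58.9 and 66.1 CPM in CerS4epi-/- mice. Trbc1 and Trbc2, the β constant regions, were common. Trbc1 was detected in 35.8% and 40.9% of control and 50.4% and 32.9% of CerS4epi-/- T cells, against 0.902% to 2.41% of the other cells. Trbc2 was detected in 70.8% and 59.1% of control and 70.5% and 65.7% of CerS4epi-/- T cells, against 23.5% to 26.2% of the other cells. Its level was 706 and 489 CPM in controls and 527 and 553 CPM in CerS4epi-/- mice, against 96.8 to 114 CPM in the other cells. Of this list 3 were tested for genotype and 0 passed (median log2 fold change -0.15). Langerhans cell markers summed to 617 to 811 CPM in the T cells, against 1629 to 1761 CPM in the other cells. Cd207, which the rule sets to 0, was joined at 0 by Ltc4s, Lyz2, Csf1r and Ccl22, and of the 14 listed genes only Cst3, a widely expressed protease inhibitor, was abundant enough to be tested, with a log2 fold change of -0.15 (adjusted p = 0.836) that turned to 0.43 when T cells rich in keratinocyte transcripts, described below, were left out. Of the list, 2 genes were higher in the T cells than in the other cells of all 4 mice, Ctss, a lysosomal protease, at 6.94 to 22.3 CPM and Mfge8, a secreted phagocytosis protein, at 18.5 to 34.7 CPM.

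Genes that the rule did not use were ranked by their ratio to the other cells. Of genes with at least 50 CPM in the T cells of every mouse, the 15 with the highest ratio to the other cells were Ctla2a, Trat1, Nkg7, Xcl1, Il2rb, Nrgn, Klrb1b, Rgs1, Fcer1g, Srgn, Gm49391, Klrd1, Ptprc, Ctla2b and Ctsw. Ctla2a, a cysteine protease inhibitor of activated T cells, stood at 5374 and 4771 CPM in controls and 5162 and 3963 CPM in CerS4epi-/- mice, against 0.78 to 1.05 CPM in the other cells. Gm49391 spans the neighbouring Ctla2a and Ctla2b genes (chromosome 13, 61043164 to 61084385), so how reads were divided among these 3 is uncertain. The ratio is a description, since the same cells were chosen by their T cell transcripts. It was taken against cells other than Langerhans cells, and some of these genes were also high there. Mean levels over the 4 mice were 2535 CPM in T cells and 2035 CPM in Langerhans cells for Rgs1, 2166 and 1236 CPM for Fcer1g, 911 and 227 CPM for Klrb1b, and 849 and 298 CPM for Ptprc. The other 11 of the 15 had means of at most 26.0 CPM in Langerhans cells. Il2rb, the β subunit of the interleukin-2 and interleukin-15 receptors on which these cells depend, stood at 1538 and 1291 CPM in controls and 1687 and 1373 CPM in CerS4epi-/- mice. Nkg7, a cytotoxic granule protein, stood at 1596 and 1367 CPM in controls and 1457 and 1169 CPM in CerS4epi-/- mice. Both genes overlapped between the genotypes.

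**Figure D2:**
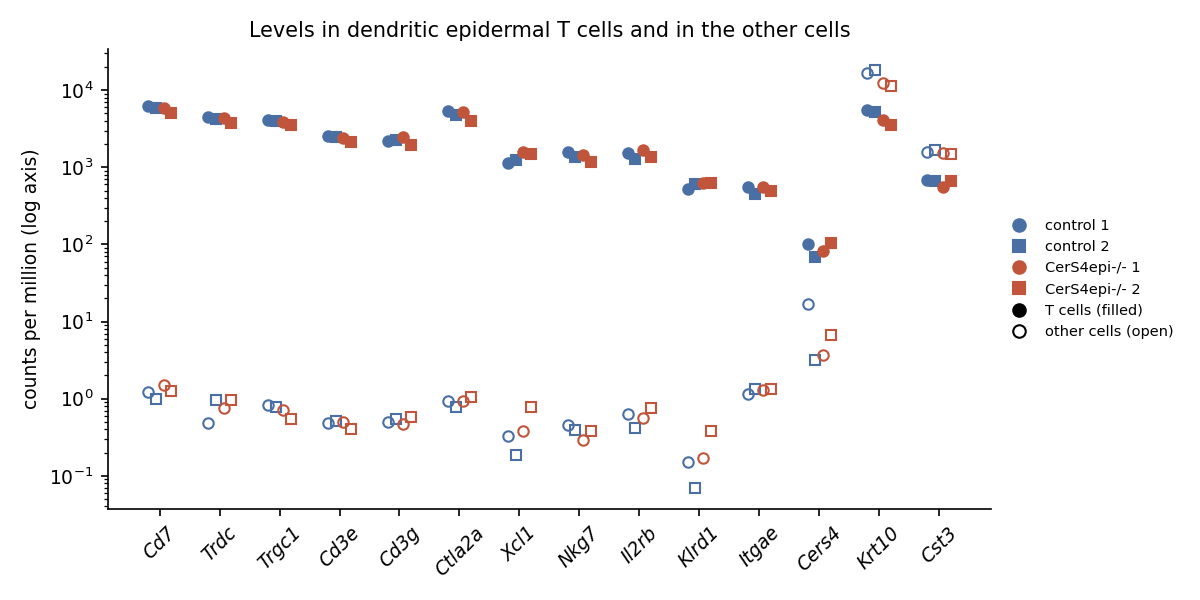
CPM level (log axis) of 14 genes in the dendritic epidermal T cells (filled) and the other cells (open) of each of the 4 mice. The T cell genes on the left and the receptors beside them are higher in the T cells than in the other cells of every mouse (Langerhans cells are not drawn), Cers4 is higher in the T cells of every mouse than in its other cells, and Krt10 and Cst3 are lower in the T cells.

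Dendritic epidermal T cells made up a larger share of the cells in both CerS4epi-/- mice than in both controls. They were 1.25% of kept cells in control mouse 1 (106 of 8480, exact Clopper-Pearson 95% interval 1.02 to 1.51) and 0.726% in control mouse 2 (66 of 9086, 0.562 to 0.923). In the CerS4epi-/- mice they were 1.54% in mouse 1 (139 of 9017, 1.3 to 1.82) and 1.89% in mouse 2 (143 of 7567, 1.60 to 2.22). The means were 0.988% ± 0.370 (SD, n = 2) and 1.72% ± 0.246 (SD, n = 2), a 1.74-fold higher mean with a two-sided exact permutation p of 0.333, the smallest that this design allows. The groups did not overlap, but the interval of control mouse 1 overlapped that of CerS4epi-/- mouse 1, and the intervals cover counting error only. A share also moves with how many keratinocytes were recovered.

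Set against Langerhans cells, the other resident immune cells of the epidermis, the T cells were again higher in both CerS4epi-/- mice. Langerhans cells, taken as cells with at least 2 counts of Cd207 and at least 4 of Cd74, H2-Aa, H2-Ab1 and H2-Eb1 together, numbered 61 and 34 in controls and 29 and 35 in CerS4epi-/- mice. There were 1.74 and 1.94 T cells per Langerhans cell in controls and 4.79 and 4.09 in CerS4epi-/- mice. The mean log2 ratio was 0.88 ± 0.11 (SD, n = 2) in controls and 2.15 ± 0.16 (SD, n = 2) in CerS4epi-/- mice, a difference of 1.27, with a two-sided exact permutation p of 0.333. Langerhans cells were 0.719% and 0.374% of cells in controls and 0.322% and 0.463% in CerS4epi-/- mice, which overlapped, with control mouse 1 the highest.

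**Figure D3:**
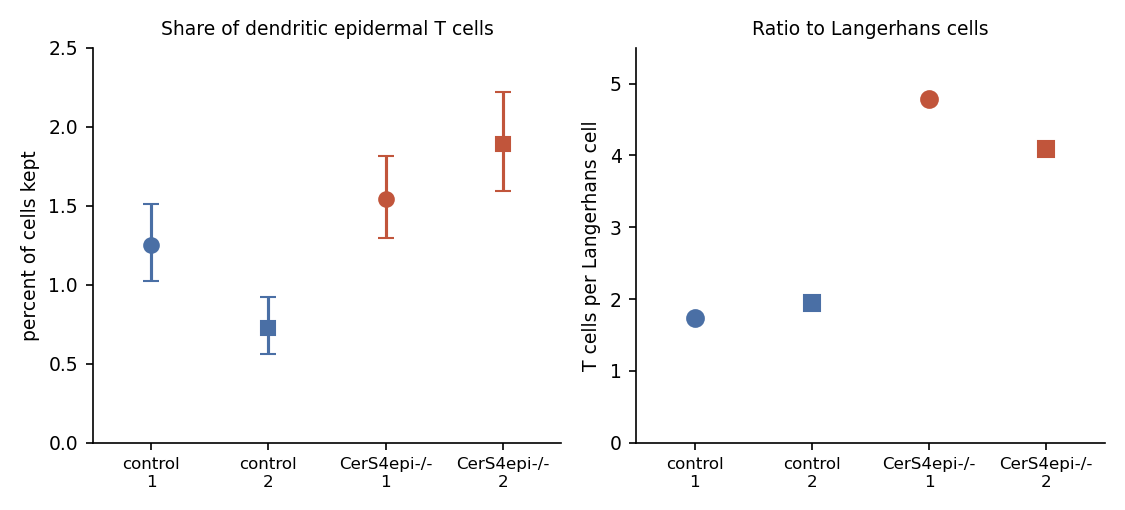
Share of dendritic epidermal T cells among the cells kept, with exact 95% binomial intervals (left), and their number per Langerhans cell (right), in each of the 4 mice. The 2 CerS4epi-/- mice lie above the 2 control mice in both panels.

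The depth of the T cells differed between genotypes in a way that touches these shares. The median T cell held 1625 and 1541 counts in controls and 1922 and 1777 in CerS4epi-/- mice, against medians of 3278 to 3945 in the other cells. Barcodes that met the T cell rule with 600 to 1200 counts, below the limit used, numbered 39 and 36 in controls and 27 and 40 in CerS4epi-/- mice, which is 26.9% and 35.3% of the barcodes from 600 counts in controls and 16.3% and 21.9% in CerS4epi-/- mice. With all barcodes from 600 counts the shares were 1.58% and 1.02% in controls and 1.7% and 2.16% in CerS4epi-/- mice, a 1.49-fold difference of the means. With at least 2000 counts they were 0.285% and 0.266% in controls and 0.789% and 0.969% in CerS4epi-/- mice, a 3.19-fold difference. The order of the genotypes was the same at each limit, while the size of the difference moved with the limit. With each library thinned to the lowest median depth of the other cells, which equalises that median and not the depth of the T cells, the shares were 1.18% and 0.728% in controls and 1.3% and 1.85% in CerS4epi-/- mice.

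Cers4 itself, the ceramide synthase that the study deletes from the epithelium, was detected in the T cells of both genotypes. The gene (chromosome 8, 4542809 to 4581680 of GRCm39) stood at 103 and 69.4 CPM in the T cells of control mice 1 and 2, and at 81.3 and 103 CPM in those of CerS4epi-/- mice 1 and 2. The values overlapped, and the log2 fold change was 0.07 with a standard error of 0.31 (adjusted p = 0.98 by edgeR quasi-likelihood, Benjamini-Hochberg adjusted). It was detected in 19.8% and 12.1% of control T cells and in 17.3% and 23.8% of CerS4epi-/- T cells, and in 0.434% to 0.907% of the other cells.

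In the other cells, nearly all of them keratinocytes, Cers4 stood at 16.9 and 3.16 CPM in controls and at 3.64 and 6.71 CPM in CerS4epi-/- mice. These values overlapped too, with a log2 fold change of -0.96 (adjusted p = 0.383 by edgeR quasi-likelihood, Benjamini-Hochberg adjusted). On this CPM scale Cers4 was higher in the T cells than in the other cells of every mouse. The other cells are a pool, and the study detected Cers4 in hair follicle and sebaceous gland clusters. The T cells were not compared with those clusters. Which exons the Cre removes was not given in the sources used here, and transcripts from outside the deleted part would be counted as before, so these levels do not check the deletion.

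To ask which genes differed between genotypes in the T cells, counts were summed over the T cells of each mouse and tested with edgeR's quasi-likelihood test, with the mouse as replicate. The sums held 224359 and 144092 counts in controls and 356797 and 378129 in CerS4epi-/- mice, so control mouse 2 was the least precise. The median log2 fold change over all genes was 0.00, with 2637 of 5258 (50.2%) above 0. Of 5258 genes tested, 28 were higher in CerS4epi-/- T cells (0.533% of genes tested) and 0 were lower (0.0%) at an adjusted p under 0.05. At an unadjusted p under 0.05 the counts were 304 and 203, and DESeq2 gave 20 higher (0.425%) and 0 lower (0.0%). Groups that did not overlap were common in any case, with 19.6% of genes tested higher in both CerS4epi-/- mice than in both controls and 21.3% lower.

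Tnfrsf9, which codes for the costimulatory receptor 4-1BB that T cells induce on activation, was the T cell gene among the 28. The gene (chromosome 4, 150999019 to 151030559 of GRCm39) stood at 49.0 and 6.94 CPM in the T cells of control mice 1 and 2 and at 249 and 193 CPM in those of CerS4epi-/- mice 1 and 2. Both CerS4epi-/- mice lay above both controls. The log2 fold change was 2.77 with a standard error of 0.42 (adjusted p = 0.00816 by edgeR quasi-likelihood, Benjamini-Hochberg adjusted). The sums rested on 11 and 1 counts in controls and 89 and 73 in CerS4epi-/- mice, a 6.77-fold higher level over the group sums with a counting interval of 3.77 to 13.4. This interval takes single counts as independent and leaves out the spread between mice and between cells. The value was past the threshold in each alternative fit that kept every mouse, with log2 fold changes from 2.38 to 3.92. Leaving out each mouse in turn, which leaves 1 mouse in a genotype, gave log2 fold changes from 2.17 to 4.90.

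More T cells of CerS4epi-/- mice held a Tnfrsf9 count. It was detected in 11 of 106 (10.4%, exact 95% interval 5.30 to 17.8) and 1 of 66 (1.52%, 0.0384 to 8.16) control T cells, and in 53 of 139 (38.1%, 30.0 to 46.8) and 41 of 143 (28.7%, 21.4 to 36.8) CerS4epi-/- T cells. After thinning every cell to 1200 counts the shares were 7.69% and 1.52% in controls and 30.2% and 19.3% in CerS4epi-/- mice, so the order held at equal depth. Without thinning, 11 cells held 11 counts and 1 held 1 in controls, and 53 held 89 and 41 held 73 in CerS4epi-/- mice, at median totals of 1510 and 1668 counts in the positive control cells and 1977 and 2069 in the positive CerS4epi-/- cells. In the other cells 0.267% to 0.418% had a count, and the level there was 0.729 to 1.01 CPM. T cells that held many keratinocyte transcripts gave 14.2% of the Tnfrsf9 counts of CerS4epi-/- T cells. Without those cells the log2 fold change was 2.77 (adjusted p = 0.0163), and Tnfrsf9 was then the only gene of 3513 tested to pass (0.0285%).

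**Figure D4:**
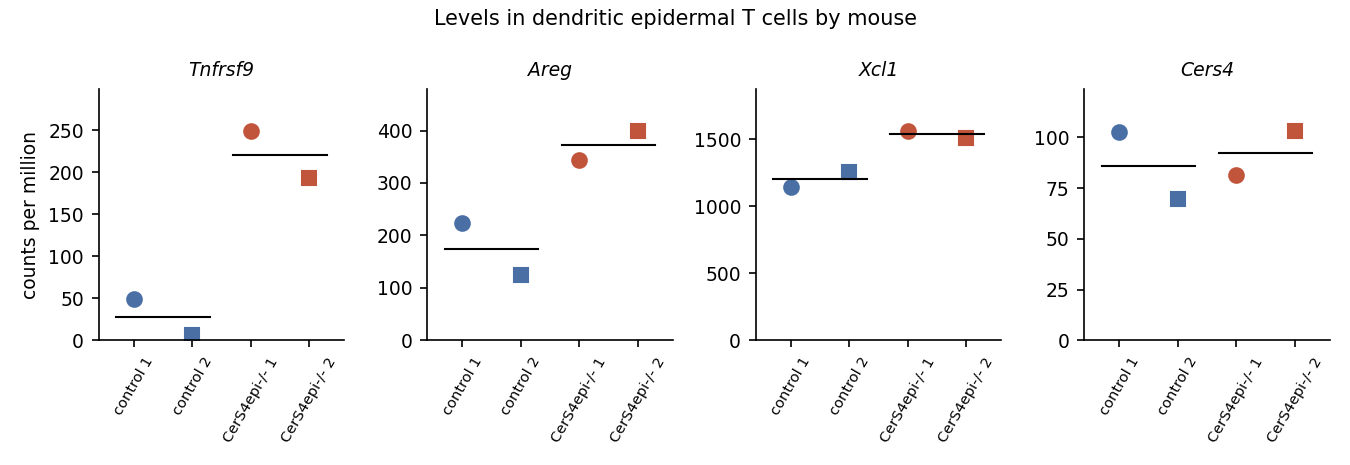
Level of Tnfrsf9, Areg, Xcl1 and Cers4 in CPM in the dendritic epidermal T cells of each mouse, with the mean of each genotype as a line. Tnfrsf9, Areg and Xcl1 are higher in both CerS4epi-/- mice than in both controls, of which only Tnfrsf9 passed the test, and Cers4 overlaps.

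The other 27 genes past the threshold include Lor, the main protein of the cornified envelope, Flg and Flg2, filaggrin family genes of the granular layer, Sprr1a, Lce1m, Crct1 and Cnfn of the cornified envelope, Cst6 and Csta1, cystatins, Asprv1 and Klk7, proteases that process filaggrin and desmosomes, Alox12b, a lipoxygenase of the lipid barrier, and the keratins Krt23 and Krt79. Of the 28, 27 had a higher mean level in the other cells than in the T cells, and Tnfrsf9 was the exception. Lor stood at 410 and 396 CPM in control T cells and at 3487 and 4194 CPM in CerS4epi-/- T cells, against a mean of 8161 CPM in the other cells. Its log2 fold change was 3.26 with a standard error of 0.16 (adjusted p = 4.86e-07, edgeR quasi-likelihood, Benjamini-Hochberg adjusted).

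These counts sat in few T cells. A T cell was called keratinocyte-rich when keratinocyte markers made up at least 20% of the median share in the other cells of its mouse. There were 17 of 106 and 15 of 66 such cells in controls and 17 of 139 and 29 of 143 in CerS4epi-/- mice, which is 18.6% of control and 16.3% of CerS4epi-/- T cells. They held 39.0% of the summed T cell counts in controls (35.9% and 43.8% in mice 1 and 2) and 38.0% in CerS4epi-/- mice (30.9% and 44.7%). The pooled values of the genotypes thus lay close, while the mice within a genotype lay further apart, and the difference was not tested. Lor, Cst6, Flg and Krt79 are themselves among the markers that define these cells, so for these 4 genes a high share there is partly fixed by the definition, while the other 24 genes are not in the marker list. In the CerS4epi-/- mice keratinocyte-rich cells held 97.1% of the Lor counts, and a lone cell of CerS4epi-/- mouse 1 held 1014 of that mouse's 1244. Over the 28 genes the keratinocyte-rich cells held a median of 95.7% of the CerS4epi-/- counts, and over 90% for 23 genes.

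The 10 largest rises were those of Slurp1, Sod3, F3, Flg, Wfdc21, Cst6, Lor, Sprr1a, Crct1 and Lce1m, with fitted log2 fold changes from 8.06 down to 2.84. With 6 or more rule counts Cst6 was at 2.56 and Sprr1a at 2.27, and neither passed (adjusted p = 0.386 and 0.421 by edgeR quasi-likelihood). In DESeq2 Lce1m was at 2.84 and did not pass (adjusted p = 0.174). Slurp1, a secreted protein of the upper epidermis, had 0 counts in the T cells of both controls and 56 and 32 counts in those of CerS4epi-/- mice 1 and 2, of which 53 and 24 came from a lone cell of each mouse. Against a floor of 3 counts over the control group the ratio of the group sums is 14.7. The floor takes counts as independent, which counts from a lone cell are not, so it sets no lower bound for T cells at large. Sod3, an extracellular superoxide dismutase, had 1 count in controls and 102 in CerS4epi-/- mice, a ratio of 51.1 with a counting interval of 8.97 to 2039. F3, tissue factor, had 2 and 134 counts, a ratio of 33.6 with an interval of 9.12 to 280. Flg had 2 and 89 counts, a ratio of 22.3 with an interval of 6.00 to 187. In the CerS4epi-/- mice 45 and 45 of the Sod3 counts and 65 and 48 of the F3 counts lay in a lone cell of each mouse, so these values describe few cells and not the T cells at large. The counting intervals leave out this clustering and the spread between mice.

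Without the keratinocyte-rich cells, 8 of the 28 genes were abundant enough to be tested and 1 passed. Lor then had a log2 fold change of -0.29, Lce1m of -0.45 and Klk7 of -0.0032, all turned from the values above, while Cst6 was at 1.40, Rnf227 at 0.32, Glul at 1.51 and Apoe at 2.08, none past the threshold (adjusted p from 0.156 to 0.998 by edgeR quasi-likelihood, Benjamini-Hochberg adjusted). Glul, glutamine synthetase, and Apoe, a lipid carrier, had 46.3% and 86.3% of their CerS4epi-/- counts in keratinocyte-rich cells. In the other cells, where 9.08% of genes tested rose and 6.78% fell in CerS4epi-/- mice, both also rose, with log2 fold changes of 1.56 for Glul (adjusted p = 0.0058) and 1.73 for Apoe (adjusted p = 0.00123). Whether a keratinocyte-rich T cell was a T cell and a keratinocyte under the same barcode or a T cell with stray keratinocyte RNA was not tested, and no doublet caller was run.

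**Figure D5:**
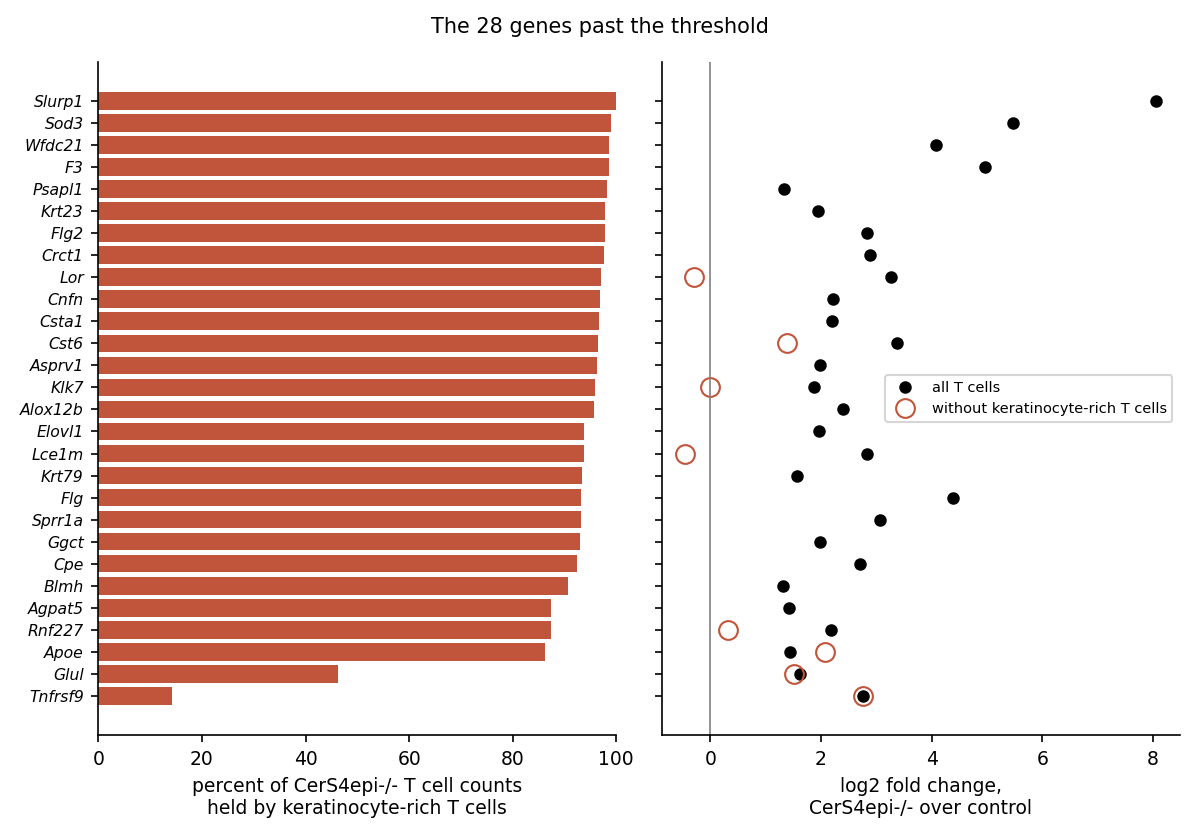
For each of the 28 genes past the threshold, the percent of the CerS4epi-/- T cell counts that lay in keratinocyte-rich T cells (left) and the log2 fold change of CerS4epi-/- over control in all T cells (filled) and without the keratinocyte-rich T cells (open, where tested) on the right. Tnfrsf9 and Glul have under 50% of their counts in such cells, and Tnfrsf9 keeps its log2 fold change of 2.77.

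Of the T cell receptor complex list, 18 genes were not used by the rule. Of these 13 were tested and 0 passed, with a median log2 fold change of 0.08 beside 0.00 over all genes tested. Trat1, an adaptor that stabilises the receptor complex, stood at 2362 and 2235 CPM in controls and 2228 and 1833 CPM in CerS4epi-/- mice (log2 fold change -0.17, standard error 0.13). Cd247, the ζ signalling chain, stood at 544 and 590 CPM in controls and 698 and 711 CPM in CerS4epi-/- mice, higher in both, and did not pass (log2 fold change 0.33, standard error 0.17, adjusted p = 0.564). As a description, Cd3e, a signalling subunit, stood at 2576 and 2471 CPM in controls and at 2419 and 2142 CPM in CerS4epi-/- mice, slightly lower in both. Cd3g, its partner, stood at 2166 and 2276 CPM in controls and 2514 and 1949 CPM in CerS4epi-/- mice, overlapping.

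Natural killer type receptors and their adaptors did not pass either. Of 16 genes, 10 were tested and 0 passed, with a median log2 fold change of 0.11. Fcer1g, a signalling adaptor, stood at 2313 and 2276 CPM in controls and 2256 and 1819 CPM in CerS4epi-/- mice. Klrd1, the CD94 receptor chain, stood at 530 and 611 CPM in controls and 631 and 622 CPM in CerS4epi-/- mice, a log2 fold change of 0.16 with a standard error of 0.17. Klrk1, the NKG2D receptor for stress ligands, stood at 432 and 368 CPM in controls and 521 and 346 CPM in CerS4epi-/- mice, overlapping.

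Cytotoxic granule genes were tested for 8 of 12, and 0 passed (median log2 fold change 0.08, and -0.07 without the keratinocyte-rich T cells). Prf1, perforin, stood at 281 and 187 CPM in controls and 258 and 214 CPM in CerS4epi-/- mice. Gzmc, a granzyme, had the widest gap, with 13.4 and 13.9 CPM in controls and 109 and 37.0 CPM in CerS4epi-/- mice (log2 fold change 2.39, standard error 0.71, adjusted p = 0.268). It was detected in 2 and 1 control T cells and in 15 and 6 CerS4epi-/- T cells. Gzma and Gzmk were at 0.

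Among the cytokines and growth factors, 5 of 22 were tested and 0 passed, with a median log2 fold change of 0.60. Xcl1, a chemokine for cross-presenting dendritic cells, stood at 1145 and 1256 CPM in controls and 1561 and 1510 CPM in CerS4epi-/- mice, a log2 fold change of 0.37 with a standard error of 0.14 (adjusted p = 0.404). Areg, the EGF family ligand amphiregulin, stood at 223 and 125 CPM in controls and at 345 and 399 CPM in CerS4epi-/- mice, a log2 fold change of 1.05 with a standard error of 0.24 (adjusted p = 0.11). Tnf stood at 98.1 and 111 CPM in controls and at 168 and 143 CPM in CerS4epi-/- mice (log2 fold change 0.60, adjusted p = 0.494). The groups did not overlap for these 3 genes, but none passed the edgeR quasi-likelihood test. Areg did pass by edgeR with no filter on low counts (adjusted p = 0.000627), with 3 or more rule counts, at 10% mitochondrial counts and from 600 counts. It did not pass from 2000 counts, without the keratinocyte-rich T cells or in DESeq2 (adjusted p = 0.630). Leaving out each mouse in turn, which leaves 1 mouse in a genotype, gave log2 fold changes from 0.75 to 1.57. Il2 overlapped, and Ifng, Il22 and Igf1 were at 0.

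Cytokine receptors were tested for 7 of 18 and genes of residency, homing and adhesion for 9 of 22, with 0 past the threshold in either list (median log2 fold changes 0.12 and -0.05). Itgae, the CD103 integrin that binds E-cadherin on keratinocytes, stood at 553 and 458 CPM in controls and 561 and 497 CPM in CerS4epi-/- mice. Cxcr6, a chemokine receptor of resident lymphocytes, stood at 98.1 and 146 CPM in controls and 81.3 and 52.9 CPM in CerS4epi-/- mice (log2 fold change -0.80, standard error 0.33, adjusted p = 0.466). Il2rg, the common γ chain, stood at 994 and 937 CPM in controls and 1100 and 897 CPM in CerS4epi-/- mice.

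Of 20 costimulation and checkpoint genes, 10 were tested, and Tnfrsf9 was the 1 that rose, beside 0.533% of all genes (median log2 fold change 0.01, and -0.02 without the keratinocyte-rich T cells). Thy1, a surface marker of these cells, stood at 2362 and 2221 CPM in controls and 2295 and 2219 CPM in CerS4epi-/- mice. Jaml, the receptor for the keratinocyte protein CAR, stood at 316 and 409 CPM in controls and 320 and 267 CPM in CerS4epi-/- mice. Pdcd1 and Btla, inhibitory receptors, were at 0, and Ctla4 overlapped.

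Activation genes were tested for 19 of 22, with Tnfrsf9 again the 1 that rose, beside 0.533% of all genes, and 12 of 19 above 0, beside 50.2% of all genes. Their median log2 fold change was 0.39, beside 0.00 over all genes tested. Nr4a2, an early target of T cell receptor signalling, stood at 486 and 416 CPM in controls and 718 and 653 CPM in CerS4epi-/- mice (log2 fold change 0.60, standard error 0.18, adjusted p = 0.251). Nr4a3, of the same family, stood at 397 and 423 CPM in controls and 555 and 553 CPM in CerS4epi-/- mice (log2 fold change 0.45, adjusted p = 0.425). Rgs2, a regulator of G protein signalling, went the other way with 7149 and 6829 CPM in controls and 6499 and 5797 CPM in CerS4epi-/- mice (log2 fold change -0.17, adjusted p = 0.614). Genes that tissue dissociation itself induces were tested for 20 of 21, with 0 past the threshold, 10 of 20 above 0 and a median of 0.01. Without the keratinocyte-rich T cells the median was 0.24 for the dissociation genes (12 of 19 above 0) and 0.42 for the activation genes (11 of 16 above 0). Junb among them stood at 1943 and 2047 CPM in control T cells and at 2562 and 2856 CPM in CerS4epi-/- T cells, and Fosb at 1676 and 1888 CPM against 2326 and 2425 CPM. Their part in the activation gene values was not tested.

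Lineage transcription factors were tested for 16 of 26 with 0 past the threshold. Their median log2 fold change was -0.14, and it turned to 0.17 without the keratinocyte-rich T cells. Id2, a regulator of innate-like lymphocytes, stood at 807 and 812 CPM in controls and 695 and 743 CPM in CerS4epi-/- mice. Rora, a nuclear receptor, stood at 134 and 167 CPM in controls and 241 and 278 CPM in CerS4epi-/- mice (log2 fold change 0.83, adjusted p = 0.203), against 401 to 470 CPM in the other cells. Runx3, which drives residency in the epidermis, overlapped at 432 and 409 CPM in controls and 451 and 410 CPM in CerS4epi-/- mice.

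A few T cells carried transcripts of interleukin-17 producing γδ T cells. Il17a or Il17f was detected in 0 of 106 and 0 of 66 control T cells. An approximate limit of 3 over the number of cells allows shares with a count of up to 2.83% and 4.55%. This limit is not the exact interval used for other shares. In CerS4epi-/- mice 1 and 2 either gene was detected in 2 of 139 and 4 of 143 T cells. Trdc was detected in 2 and 3 of these cells and Trdv4 in 1 and 0. At least 2 of Il17a, Il17f, Ccr6, Il23r and Blk were detected together in 0 control T cells and in 1 and 4 CerS4epi-/- T cells, none of them with Trdv4. With so few cells, a difference between genotypes was not tested. Of the 9 measured genes of this list 1, Maf, was tested and it overlapped (log2 fold change -0.32). Markers of type 2 innate lymphoid and natural killer cells were tested for 2 of 10, with 0 past the threshold (median -0.32, and 0.26 without the keratinocyte-rich T cells) and Il1rl1, Il5, Il17rb, Eomes and Klra8 at 0.

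Interferon response and class I genes were tested for 12 of 22, with 0 past the threshold and 10 of 12 above 0, beside 50.2% of all genes. Their median log2 fold change was 0.29, and 0.52 without the keratinocyte-rich T cells. H2-K1, a class I heavy chain, stood at 1248 and 1287 CPM in control T cells and 1575 and 1854 CPM in CerS4epi-/- T cells, against 1594 and 1578 CPM and 1758 and 1857 CPM in the other cells. B2m, its partner, stood at 1426 and 1437 CPM in controls and 1460 and 1460 CPM in CerS4epi-/- mice. Neither gene passed, with log2 fold changes of 0.45 for H2-K1 (standard error 0.14) and 0.04 for B2m (standard error 0.13). Cell cycle genes were tested for 7 of 17 with 0 past the threshold (median 0.09, and 0.26 without the keratinocyte-rich T cells), and Mki67, a marker of cycling cells, was detected at 13.4 and 13.9 CPM in controls and 14 and 34.4 CPM in CerS4epi-/- mice.

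Genes of sphingolipid metabolism and the sphingosine 1-phosphate receptors were tested for 26 of 41, with 0 past the threshold and a median log2 fold change of 0.05. Without the keratinocyte-rich T cells 11 were tested and the median turned to -0.15. Besides Cers4, the T cells held the ceramide synthases Cers6, at 187 and 139 CPM in controls and 165 and 103 CPM in CerS4epi-/- mice, and Cers2, at 125 and 132 CPM in controls and 109 and 92.6 CPM in CerS4epi-/- mice. Cers6 overlapped, and Cers2 had a log2 fold change of -0.33 with a standard error of 0.27. S1pr1, the receptor that lets lymphocytes leave tissue, was near 0, with 2.64 CPM in CerS4epi-/- mouse 2 and 0 in the other mice. Of 22 lipid uptake and sterol genes 17 were tested, and Apoe was the 1 that rose, beside 0.533% of all genes (median 0.01), under the limit on keratinocyte-rich cells given above. Its log2 fold change of 1.45 fell to 0.68 with 6 or more rule counts and to 0.41 without the 5% deepest T cells. It passed in neither (adjusted p = 0.706 and 0.803 by edgeR quasi-likelihood). Srebf2, a transcription factor of sterol synthesis, stood at 149 and 111 CPM in controls and 235 and 198 CPM in CerS4epi-/- mice (log2 fold change 0.69, adjusted p = 0.352).

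Mitochondrially encoded genes were tested for 12 of 13 with 0 past the threshold (median log2 fold change -0.05, and 0.03 without the keratinocyte-rich T cells). Keratinocyte markers were tested for all 20, and 4 of them, Lor, Flg, Cst6 and Krt79, rose (median 0.21), beside 0.533% of all genes. Without the keratinocyte-rich T cells, which these markers define, 0 of 15 passed and the median turned to -0.29, with 4 of 15 above 0. Summed over this list the T cells held 25742 and 26889 CPM in controls and 29399 and 30466 CPM in CerS4epi-/- mice, against 81586 to 92734 CPM in the other cells. Krt10, the most abundant of the list, went the other way at 5536 and 5212 CPM in control T cells and 4142 and 3533 CPM in CerS4epi-/- T cells (log2 fold change -0.47, adjusted p = 0.118). Of the stress keratinocyte markers 2 of 10 were tested and Sprr1a rose (median 1.57), beside 0.533% of all genes, and 0 could be tested without the keratinocyte-rich T cells. Sebocyte, macrophage and mast cell, and red blood cell markers had 3, 1 and 1 genes tested and 0 past the threshold (medians 0.41, 0.57 and -1.15), and fibroblast, endothelial and melanocyte markers had 0 tested.

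To ask whether a genotype difference was particular to the T cells, it was compared with that of the other cells of the same mice in a fit over 8 sums with the mouse as block. Of 14767 genes tested, 71 had a more positive difference in the T cells (0.481%) and 52 a more negative one (0.352%). Tnfrsf9 was among the former, with a log2 difference of 2.62 and a standard error of 0.70 (adjusted p = 0.0235 by edgeR quasi-likelihood, Benjamini-Hochberg adjusted), although it missed the threshold in 5 of the 7 alternatives. In the other cells its log2 fold change was 0.28 (adjusted p = 0.479). Of the 28 genes that rose in the T cells, 23 were among the 71, and 22 of these are genes whose counts sat mostly in keratinocyte-rich cells. Without those cells 4 genes were more positive (0.0273%) and 19 more negative (0.129%). Cers4 had a log2 difference of 1.11 with a standard error of 0.45 and did not pass (adjusted p = 0.513).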

How the data were processed

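Single cells of back skin were captured on a BD Rhapsody microwell cartridge after labelling with a multiplexing kit. The authors trimmed reads with fastp 0.23.2 and counted them with STAR 2.7.10a against GRCm39, with multi-mapping reads shared out by expectation maximization, so the deposited values are expected counts of unique molecules per gene (32479 genes) and barcode that need not be whole. The deposited matrices list all 884736 possible barcodes. The authors' doublet calls were not used here and no doublet caller was run.

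The study's limits of 1200 counts and 20% mitochondrial counts were applied to barcodes. Counts were rounded per cell for the T cell rule, and summed over the cells of a mouse and rounded for the tests. Sums were scaled by TMM, filtered by filterByExpr and tested with edgeR 4.0.16 (R 4.3.3) by its quasi-likelihood test at 0.05, Benjamini-Hochberg adjusted over all genes tested. DESeq2 1.42.0 was an alternative. Standard errors are of the log2 fold change and were derived from the test, as its absolute value over the square root of the F statistic. Shares were compared by a two-sided exact permutation test over the mice (scipy 1.17.1). For shares of cells with a count, cells were also thinned to 1200 counts.

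The T cells, the 26 gene lists and the tests were chosen with earlier results of these data known. Genes were named by rule: the rule genes, Xcl1, Nkg7 and Cers4, the 15 with the highest ratio of T cells to other cells (pseudocount of 1 CPM) at 50 CPM or more, up to 10 per direction past the threshold without overlap, and of each list those past the threshold and up to 4 with the highest level. Other genes named with a list, and Emb, were chosen after their values were seen. Positions are from GENCODE on GRCm39, matched by gene ID for 55 of 55 genes. The 4 samples are separate mice, and p-values measure the spread between them. The study used littermates, but which mice shared a litter was not given. The tests were tried on simulated data first.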

Additional observations from a re-analysis of the deposited data

Results flagged for a closer look

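The genotype difference in the dendritic epidermal T cells departed from that in the other cells of the same mice for 71 genes in the positive and 52 in the negative direction (0.481% and 0.352% of genes tested). The log2 difference was 13.0 for Slurp1, a fitted value that depends on the 0 counts of both controls and bounds nothing, 6.15 for Sod3, 5.34 for F3, 4.23 for Wfdc21, 3.47 for Flg, 3.34 for Lor, 3.03 for Crct1, 2.91 for Lce1m and 2.80 for Flg2. It was 2.60 for Alox12b, 2.23 for Rnf227, 2.19 for Cnfn, 2.14 for Csta1, 2.13 for Elovl1, 2.10 for Krt23, 1.98 for Ggct, 1.90 for Asprv1, 1.64 for Klk7, 1.42 for Cst6, 1.39 for Blmh, 1.34 for Agpat5 and 1.19 for Psapl1. Each of these 22 genes had over 80% of its CerS4epi-/- counts in keratinocyte-rich T cells, and none of them was among the 4 genes with a more positive difference when those cells were left out.

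Tnfrsf9 had a log2 difference of 2.62 with 14.2% of its CerS4epi-/- counts in such cells. Without those cells its difference was 2.66 and missed the threshold too (adjusted p = 0.132 by edgeR quasi-likelihood, Benjamini-Hochberg adjusted). This was among the 5 of 7 alternatives in which it did not pass.

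Emb, a partner protein of monocarboxylate transporters, had a log2 difference of 1.39 and was named after its values were seen. It stood at 176 and 127 CPM in control T cells and at 277 and 383 CPM in CerS4epi-/- T cells, a log2 fold change of 1.10. This did not pass on its own (adjusted p = 0.105 by edgeR quasi-likelihood, Benjamini-Hochberg adjusted). With no filter on low counts it passed the same test (1.16, adjusted p = 0.000599). Leaving out each mouse in turn, which leaves 1 mouse in a genotype, gave 0.84 to 1.40. In the other cells Emb fell by 0.28 on the log2 scale (adjusted p = 0.0377 by the same test). The difference stayed past the threshold in each of the 7 alternatives, from 1.2 to 2.07.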

How the results depend on the processing

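The share of dendritic epidermal T cells and their ratio to Langerhans cells kept their direction in each of the 12 alternatives, with differences of 0.466 to 1.23 percentage points and of 1.05 to 1.82 on the log2 scale. Tnfrsf9 kept its call in each alternative fit that kept every mouse. The count of genes higher in T cells rested largely on few cells: it was 28 and fell to 1 without the keratinocyte-rich T cells and to 1 without the 5% deepest T cells. Fewer genes were tested in these fits, 3513 and 4145 against 5258. Without the keratinocyte-rich T cells 8 of the 28 were tested. Glul lost its call in both fits at log2 fold changes of 1.51 and 1.62, beside 1.62 in the main fit. The count of higher genes was 89 with no filter on low counts, 57 and 18 with 3 and 6 rule counts, 83 at 10% mitochondrial counts and, chosen after seeing the data, 48 from 600 counts. The count of lower genes was 0 and became 19 with no filter, 13 and 2 with 3 and 6 rule counts, 24 from 2000 counts, 14 at 10% mitochondrial counts and 6 from 600 counts. Leaving out each mouse in turn gave 43 to 75 higher and 15 to 29 lower, where a lone mouse was assumed to vary like the others. The difference from the other cells gave 4 higher and 19 lower without the keratinocyte-rich T cells, and 14 to 68 and 16 to 40 leaving out a mouse. For Tnfrsf9 it missed the threshold at 2.61 with no filter (adjusted p = 0.0501 in edgeR's quasi-likelihood test), at 2.66 without the keratinocyte-rich T cells, and leaving out either control mouse or CerS4epi-/- mouse 1 (2.07 to 4.70 over the 4 mice). Cers4 turned to -0.012 from 600 counts (chosen after seeing the data) and to between -0.14 and 0.41 leaving out a mouse, without passing. Without the keratinocyte-rich T cells Lor turned to -0.29, Lce1m to -0.45 and Klk7 to -0.0032, and without the 5% deepest Lor turned to -0.57, Crct1 to -0.75, Lce1m to -0.32, Rnf227 to -0.083, Asprv1 to -0.65, Ggct to -0.094, Klk7 to -0.96 and Krt79 to -0.27. Where no cause is named by the construction, the cause was not tested.

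With the replicate number as a block, the counts were 27 higher and 3 lower. The numbers share no more than a label, since the deviations of same-numbered mice correlated at 0.037 across 5258 genes, which are not independent replicates.

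With 144092 to 378129 counts behind a mouse, and 2 mice a genotype, precision was low. The smallest log2 fold change called was 1.31 (Blmh), and larger ones, such as that of Gzmc, also went uncalled. In the simulated data, with an assumed spread between mice, 2.5% of 2-fold and 94% of 4-fold changes were recovered in well-counted genes. Changes could thus be missed at any level, and a list with 0 genes past the threshold is not shown to be alike between genotypes.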

Other observations

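Some genes detected in the T cells differed from the other cells in their genotype difference, or came near the threshold, and were named after their values were seen. Cd96, a receptor of the nectin family, stood at 263 and 229 CPM in the T cells of control mice 1 and 2 and at 306 and 307 CPM in those of CerS4epi-/- mice 1 and 2, and its log2 difference from the other cells was 1.56 (adjusted p = 0.0367 by edgeR quasi-likelihood, Benjamini-Hochberg adjusted). Most of that came from the other cells, where Cd96 fell by 1.22 on the log2 scale (adjusted p = 0.0171), against 0.31 in the T cells (adjusted p = 0.655). Id2 had a log2 difference of -1.15 (adjusted p = 8.7e-08), with a log2 fold change of -0.16 in the T cells that did not pass and a rise of 1.03 in the other cells. Cd9, a tetraspanin, stood at 477 and 451 CPM in control T cells and at 244 and 249 CPM in CerS4epi-/- T cells, lower in both. It just missed the threshold with a log2 fold change of -0.90 and a standard error of 0.18 (adjusted p = 0.0522 by edgeR quasi-likelihood). How much of this rested on keratinocyte-rich T cells is not given here.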
